A study of Mus musculus with 28 samples.

Results

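Tdpoz1, Tdpoz3 and Tdpoz4 are 3 of the 37991 genes in the count data, taken by their symbols, and all 3 were among the 20321 genes with at least 16 reads over the 16 RNA libraries. They lie within one array of related copies on chromosome 3 of the mouse genome (mm9 build), each with a single annotated exon. Tdpoz1 (ENSMUSG00000059676) occupies chr3:93474184-93475418 on the minus strand. Tdpoz4 (ENSMUSG00000060256) occupies chr3:93600320-93601432 and Tdpoz3 (ENSMUSG00000058005) chr3:93629942-93631039, both on the plus strand.

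Tdpoz proteins carry a MATH (TRAF) domain, which binds substrates, and a POZ/BTB domain, by which proteins of this kind are known to dock onto the cullin 3 ubiquitin ligase. Their transcripts are known from the early mouse embryo and from the rare 2-cell-like cells of embryonic stem cell (ESC) cultures, in which long terminal repeats (LTRs) of the MERVL family of endogenous retroviruses act as promoters. KAP1, encoded by Trim28, is the corepressor that KRAB zinc finger proteins recruit to transposable elements (TEs), where it brings in histone H3K9 methylation; DNMT enzymes methylate cytosine, and TET enzymes oxidise 5-methylcytosine to 5-hydroxymethylcytosine (5hmC).

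The study asked how KAP1, DNA methylation and TET enzymes act on single TE copies in naive mouse ESCs. J1 cells (strain 129S4/SvJae) in 2i medium with LIF were wild type (WT), DNMT KO (Dnmt1, Dnmt3a and Dnmt3b knockout, here DNMT TKO) or TET KO (Tet1, Tet2 and Tet3 knockout, here TET TKO). All were transduced with a lentiviral vector without (shEmpty) or with a Kap1 hairpin (shKAP1), selected with puromycin and collected after 5 days. RNA-seq libraries numbered 3 per hairpin for WT and DNMT TKO and 2 per hairpin for TET TKO. Whether a knockout line is 1 clone is not given in the sources used here. By the paper, the DNMT TKO and TET TKO lines came from different outside groups, so that genotype and the origin of a line cannot be told apart.

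The libraries held 18108431 to 29373696 reads on genes. The RNA values below rest on reads that the authors describe as aligned to 1 place only. The paper names no such filter for its other sequencing data. Trim28 fell to 9.42% of its shEmpty level in WT, 22.9% in DNMT TKO and 9.03% in TET TKO. In the shEmpty libraries, Dnmt1, Dnmt3a and Dnmt3b stood at 31.9%, 12.1% and 16.1% of WT in DNMT TKO, and Tet1, Tet2 and Tet3 at 35.6%, 22.3% and 98.7% of WT in TET TKO, counted over whole genes, which need not show the loss of an exon. All 8 ESC markers were detected in every group, with summed levels of 5154 to 6401 CPM (reads per 1000000 reads on genes) in shEmpty and 3327 to 4339 CPM in shKAP1 libraries. Summed levels ran from 3.15 to 11.5 CPM for fibroblast markers, from 4.23 to 25.7 CPM for trophoblast markers and from 7.36 to 17.3 CPM for primitive endoderm markers. Some libraries stood apart. Replicate 1 of each WT and DNMT TKO group differed from its replicates 2 and 3 by a chi-square of 11.1 to 15.3 per degree of freedom, against 1.81 to 5.97 between replicates 2 and 3. The 2 shEmpty libraries of TET TKO differed by 45.6, and replicate 2 of them had 8956580 reads on all repeats against 1554298 to 2716458 elsewhere. For the 3 genes, values without these libraries are given where they change a call or move a value by over 1.5 times, and for TET TKO shEmpty beside each knockdown effect.

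The repeats upstream of the 3 genes were shared. An LTR of the MT2B type, from an older branch of the same ERVL group as MERVL, lay in the sense direction 4572 bp upstream of the annotated start of Tdpoz1, 4860 bp upstream of Tdpoz3 and 4544 bp upstream of Tdpoz4. Between this LTR and the gene, a piece of an RMER17C element in the antisense direction ended 105, 305 and 193 bp before the gene. The RefSeq promoter of Tdpoz1 matched the mm9 genome at 1 place, and its start site fell inside the MT2B, 4787 bp upstream of the annotated Ensembl gene. The positions that align to this start in the MT2B copies of Tdpoz3 and Tdpoz4 lay 5061 and 4760 bp upstream of their annotated genes. RefSeq placed the start of Tdpoz4 at the annotated gene start, where no repeat is annotated, and its promoter table used here held no entry for Tdpoz3. The 150 bases before the Tdpoz1 start and before the aligned positions are shown because the 3 genes share them. Capitals mark 9 letters that all 3 hold near these positions. The stretches were read from mm9 at chr3:93480206-93480355 (minus strand) for Tdpoz1, chr3:93624731-93624880 (plus) for Tdpoz3 and chr3:93595410-93595559 (plus) for Tdpoz4.
Tdpoz1: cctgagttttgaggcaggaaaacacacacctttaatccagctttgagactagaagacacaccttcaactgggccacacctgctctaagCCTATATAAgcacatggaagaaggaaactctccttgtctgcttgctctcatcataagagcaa
Tdpoz3: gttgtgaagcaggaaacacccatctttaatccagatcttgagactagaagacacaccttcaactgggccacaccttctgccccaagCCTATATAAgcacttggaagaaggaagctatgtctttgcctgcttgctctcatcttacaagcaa
Tdpoz4: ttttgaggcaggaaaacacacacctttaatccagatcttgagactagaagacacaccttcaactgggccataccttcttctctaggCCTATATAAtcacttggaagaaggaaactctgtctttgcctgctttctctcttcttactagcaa

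The 3 stretches were alike throughout. Tdpoz1 and Tdpoz3 were identical at 129 of 144 aligned bases (89.6%), Tdpoz1 and Tdpoz4 at 131 of 144 (91%), and Tdpoz3 and Tdpoz4 at 134 of 149 (89.9%). The letters CCTATATAA began 62 bases before the start in Tdpoz1 and 64 bases before the aligned position in Tdpoz3 and Tdpoz4. They were chosen after the sequences were seen. Among the 150 bases before the start of 32851 RefSeq promoters (GRCm38.p6), 43 (0.131%) held them on the gene's strand and 0.18% on either strand, and 4 of these promoters belong to genes of the same family, Tdpoz1, Tdpoz8, Tdpoz9 and Spopfm2. The shorter TATATAA within it was found in 1.43% of promoters on the gene's strand and 1.89% on either, and the letters TATAAA, absent from the 3 stretches, in 4.84% and 7.57%. These matches describe the letters only.

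Knockdown of Kap1 raised all 3 Tdpoz genes in WT, DNMT TKO and TET TKO cells, with the largest estimates in TET TKO and the smallest in DNMT TKO. Tdpoz3 rose from 0.945 ± 0.150 to 20.4 ± 0.858 CPM in WT (SD, n = 3), Tdpoz4 from 0.729 ± 0.165 to 5.05 ± 0.493 CPM and Tdpoz1 from 0.0237 ± 0.0205 to 1.11 ± 0.415 CPM. In bulk RNA, more cells expressing a gene and more RNA per cell cannot be told apart. A gene was called where its adjusted p was under 0.05 and its fold 2 or more. By this rule Tdpoz3 and Tdpoz4 were called higher in WT, where 10.8% of all tested genes were, in DNMT TKO (10.1% of all genes) and in TET TKO (8.05%). Tdpoz1 was called in each genotype too, but it passed the filter of 16 reads through its shKAP1 libraries alone, with 6 reads in all shEmpty libraries together, so that a rise was built into its test. The test was edgeR's quasi-likelihood test with Benjamini-Hochberg adjustment over all 20321 genes. Its p-values measure the spread between replicates, which the paper describes as independent experiments. In comparisons of genotypes they do not measure a spread between independently made lines.

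Tdpoz3, the copy with the most reads (4393 of the 5663 on the 3 genes), had 14, 30 and 28 reads in the WT shEmpty libraries against 370, 486 and 387 in WT shKAP1. In DNMT TKO it had 4, 20 and 22 reads without knockdown against 127, 189 and 166 in shKAP1. In TET TKO it had 21 and 10 reads without knockdown against 1315 and 1204 in shKAP1. Every shKAP1 library was above every shEmpty library, and the 3 shKAP1 groups did not overlap each other. The share of all genes or TEs with such gaps was not computed, here or for the gaps given below. The log2 fold change was 4.39 (SE 0.23, adjusted p = 1.1e-10, edgeR) in WT, 3.51 (SE 0.26, adjusted p = 1.8e-08) in DNMT TKO and 6.76 (SE 0.30, adjusted p = 3.2e-11) in TET TKO. As reads summed over libraries and scaled to library size, the ratio of shKAP1 to shEmpty was 21.1 in WT (95% interval of the counting error 16.6 to 27.1), 11.3 in DNMT TKO (8.35 to 15.7) and 109 in TET TKO (76.4 to 160). Without replicate 2 of TET TKO shEmpty the log2 fold change in TET TKO was 6.38, and without replicate 1 it was 7.34.

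Tdpoz4 had 10, 21 and 25 reads in WT shEmpty against 88, 129 and 93 in WT shKAP1. In DNMT TKO it had 4, 27 and 12 reads without knockdown against 40, 72 and 67 in shKAP1, and in TET TKO 20 and 11 against 235 and 225. No shEmpty library reached the lowest shKAP1 library. The log2 fold change was 2.75 in WT (SE 0.31, adjusted p = 9.3e-07, edgeR), 2.19 in DNMT TKO (SE 0.33, adjusted p = 5.9e-05) and 4.30 in TET TKO (SE 0.37, adjusted p = 1.1e-07). The ratios of summed reads were 6.76 (5.07 to 9.15), 4.50 (3.21 to 6.43) and 19.9 (13.8 to 29.6), the smallest of the 3 genes in each genotype. Without replicate 2 of TET TKO shEmpty the value in TET TKO was 4.00 and without replicate 1 it was 4.75, and without replicate 2 of DNMT TKO shEmpty that in DNMT TKO was 2.85.

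Tdpoz1 was near the limit of detection without knockdown. It had 0, 1 and 1 reads in WT shEmpty against 24, 33 and 12 in WT shKAP1. DNMT TKO gave 0, 0 and 2 reads without knockdown against 3, 12 and 6 in shKAP1, and TET TKO 0 and 2 against 46 and 49. Each shKAP1 group was above its own shEmpty group, with the lowest DNMT TKO library 1 read above the highest shEmpty library. The ratios of summed reads were 42.1 in WT (11.2 to 355), 11.3 in DNMT TKO (2.77 to 99.8) and 63.6 in TET TKO (17.1 to 533), wide because each shEmpty group held 2 reads. The fitted log2 fold changes of 5.13 (SE 0.73, adjusted p = 1.6e-05, edgeR), 3.28 (SE 0.92, adjusted p = 0.0094) and 5.80 (SE 0.75, adjusted p = 1.2e-05) rest on the same few reads. The filter built a rise into these tests, so their p-values do not show one. The value in DNMT TKO was 2.56 with an adjusted p of 0.064 without replicate 2 of DNMT TKO shKAP1, 2.64 without replicate 2 of DNMT TKO shEmpty and 5.84 without replicate 3 of DNMT TKO shEmpty. In TET TKO it was 4.86 without replicate 1 of TET TKO shEmpty and 8.76 without replicate 2.

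**Figure D1:**
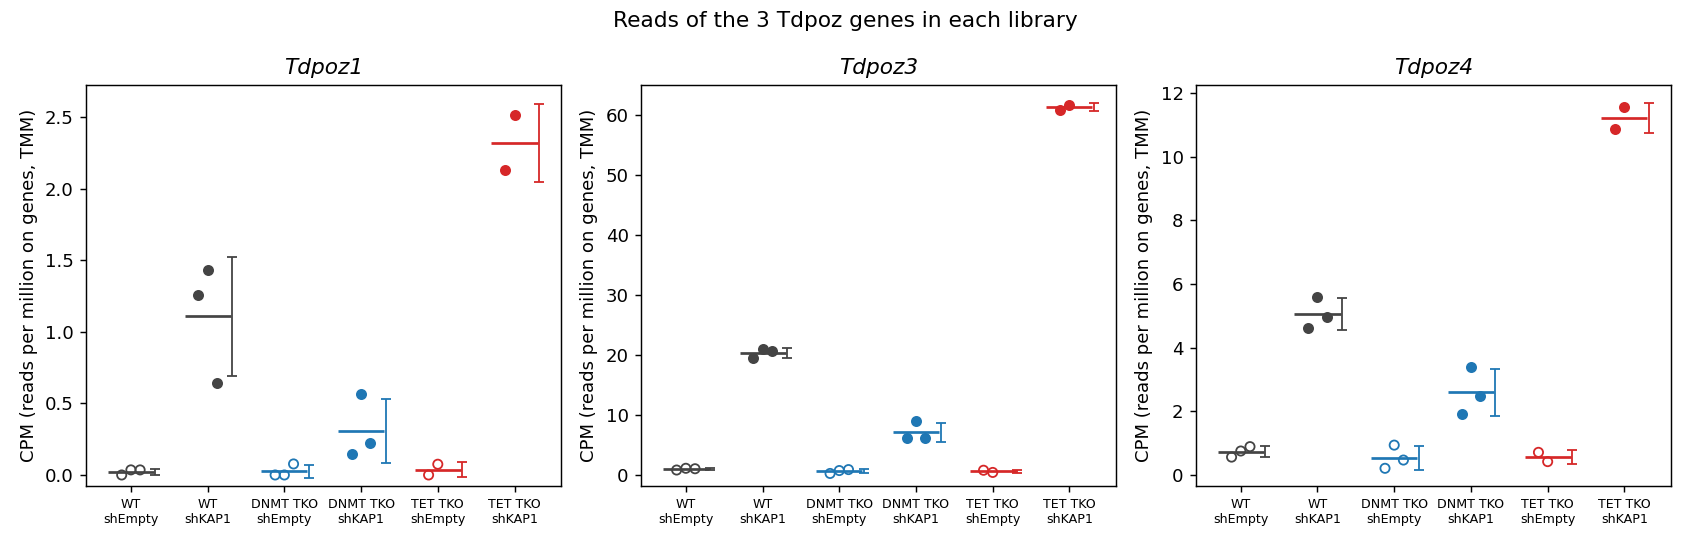
Level of Tdpoz1, Tdpoz3 and Tdpoz4 in reads per 1000000 reads on genes (linear axis, one panel per gene) in each of the 16 RNA libraries, grouped by genotype and hairpin. Points are libraries, open for shEmpty and filled for shKAP1, horizontal lines are group means and bars 1 SD; Tdpoz3 reaches 60.9 to 61.8 CPM in the 2 TET TKO shKAP1 libraries against 19.4 to 21.1 CPM in WT shKAP1.

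The order of the groups was the same for the 3 genes at its upper end: TET TKO shKAP1, then WT shKAP1, then DNMT TKO shKAP1. In TET TKO shKAP1 the means were 61.3 ± 0.646 CPM for Tdpoz3, 11.2 ± 0.473 CPM for Tdpoz4 and 2.32 ± 0.272 CPM for Tdpoz1 (SD, n = 2). In DNMT TKO shKAP1 they were 7.05 ± 1.59, 2.60 ± 0.739 and 0.310 ± 0.224 CPM (SD, n = 3). Neighbours in this part of the order did not overlap in any of the 3 genes, nor did the lowest shKAP1 group and the highest shEmpty group. For Tdpoz1 the gap to shEmpty was built in by the filter, and the share of all genes with such gaps was not computed. The shEmpty groups overlapped each other, except that Tdpoz3 in TET TKO shEmpty (0.376 to 0.740 CPM) lay below WT shEmpty (0.778 to 1.07 CPM). Per kilobase of exon, the level in TET TKO shKAP1 was 55.9 CPM per kb for Tdpoz3, 10.1 for Tdpoz4 and 1.88 for Tdpoz1, and in WT shKAP1 18.5, 4.54 and 0.898, so that the order among the genes was the same in both. Over the 16 libraries the log2 levels of the 3 genes moved together, with r = 0.989 for Tdpoz3 and Tdpoz4, 0.955 for Tdpoz1 and Tdpoz3 and 0.939 for Tdpoz1 and Tdpoz4, a description of libraries that share depth and composition.

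With KAP1 present, the genotypes were not told apart. For DNMT TKO against WT in shEmpty, 0 of 3 genes were called by edgeR, 0 had an unadjusted p under 0.05, and limma-voom and DESeq2 also called 0, while 16.3% of all genes were called in either direction. The log2 differences were -0.65 for Tdpoz3 (adjusted p = 0.13, edgeR) and -0.40 for Tdpoz4 (adjusted p = 0.44). For TET TKO against WT, where 10.5% of all genes were called, the same counts were again 0, with -0.77 for Tdpoz3 (adjusted p = 0.15) and -0.40 for Tdpoz4 (adjusted p = 0.54). Of Tdpoz1, the 0 to 2 reads per library allow no comparison.

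After knockdown the genotypes differed. In TET TKO shKAP1 against WT shKAP1, 2 of 3 genes were called higher (6.10% of all genes), with log2 differences of 1.59 for Tdpoz3 (SE 0.18, adjusted p = 3.8e-06, edgeR) and 1.15 for Tdpoz4 (SE 0.27, adjusted p = 0.0031). Tdpoz1 differed by 1.05 (SE 0.41, adjusted p = 0.065) and did not pass, although limma-voom gave an adjusted p of 0.034, the fit of only the groups compared one of 0.027, and the fit without replicate 1 of WT and DNMT TKO, an alternative chosen after seeing the data, called it at 1.12 (adjusted p = 0.011). In DNMT TKO shKAP1 against WT shKAP1, 2 of 3 genes were called lower (8.37% of all genes), Tdpoz3 by a log2 difference of -1.53 (SE 0.18, adjusted p = 1.6e-06) and Tdpoz1 by -1.86 (SE 0.48, adjusted p = 0.0039), or -2.57 without replicate 2 of DNMT TKO shKAP1. For Tdpoz4 the difference was -0.96 (SE 0.26, adjusted p = 0.0056), just under 2-fold and past it without replicate 1 or replicate 3 of WT shKAP1 or replicate 2 of DNMT TKO shKAP1; 24.0% of all genes were lower by the adjusted p alone. Trim28 itself was higher in these DNMT TKO libraries, at 427 ± 91.5 CPM against 165 ± 21.9 CPM in WT shKAP1 (SD, n = 3), and the part of the weaker knockdown in the lower Tdpoz levels was not tested. In TET TKO shKAP1, Trim28 was at 166 ± 3.84 CPM (SD, n = 2), within 1 SD of WT.

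The difference of the knockdown effect itself was tested as an interaction. For TET TKO minus WT, 1 of 3 genes was called, Tdpoz3 at 2.36 on the log2 scale (SE 0.42, adjusted p = 0.0015, edgeR), where 2.08% of all genes were called higher. Leaving out replicate 2 of TET TKO shEmpty gave 1.98 (adjusted p = 0.019), leaving out its replicate 1 gave 2.93 (adjusted p = 0.0034), and the call held in each of the fits that left out 1 library. Tdpoz4 gave 1.55 (SE 0.51, adjusted p = 0.063), with 1.23 and 1.99 when replicate 2 or replicate 1 of TET TKO shEmpty was left out. It was called with the replicate block (adjusted p = 0.038), with DESeq2 (0.023), without a filter on low counts (0.048), with only the groups compared (0.012) and without replicate 1 of WT and DNMT TKO (0.0017). Tdpoz1 gave 0.67 (adjusted p = 0.89), with 3.62 and -0.28 when replicate 2 or replicate 1 was left out. For DNMT TKO minus WT, 0 of 3 genes were called by edgeR and 0 by limma-voom and DESeq2, with 1 at an unadjusted p under 0.05, and 7.14% of all genes were called in either direction. The values were -0.88 for Tdpoz3 (adjusted p = 0.14), -0.56 for Tdpoz4 (adjusted p = 0.48) and -1.86 for Tdpoz1 (adjusted p = 0.55). Tdpoz3 was called at -1.11 without replicate 1 of WT and DNMT TKO (adjusted p = 0.013), at -1.25 without replicate 1 of DNMT TKO shEmpty and at -1.12 without replicate 2 of DNMT TKO shKAP1. The 2 interactions share the WT libraries.

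**Figure D2:**
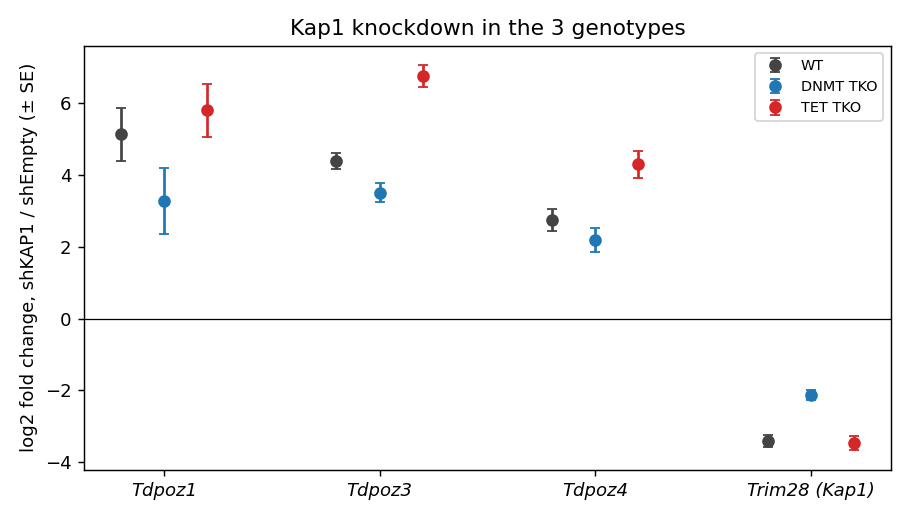
Log2 fold change of shKAP1 over shEmpty for the 3 Tdpoz genes and for Trim28, the target of the hairpin, in WT, DNMT TKO and TET TKO. Points are edgeR estimates and bars 1 SE, derived from the F statistic of the test. Tdpoz3 lies at 4.39, 3.51 and 6.76, while Trim28 lies at -3.41, -2.13 and -3.47.

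Copies that are nearly identical decide which reads can be assigned. A search of mm9 with the exons of the 3 genes found 29 loci of at least 400 bp and 75% identity, and 18 of them lay on annotated genes, all on chromosome 3. Of these 18 copies, 15 had at least 16 reads, 3 had fewer (Gm9117 with 12, Tdpoz5 with 13 and Gm10697 with 1) and none was at 0. The copies held 13699 reads, of which Tdpoz1, Tdpoz3 and Tdpoz4 carried 41.3%. Tdpoz3 held 32.1% and Gm4778 31.1%, followed by Gm4858 with 8.80%, Tdpoz4 with 7.88% and Gm4982 with 7.74%. Tdpoz1 was 88.07% identical to Tdpoz3 and 78.45% identical to Tdpoz4 over the exon, and Tdpoz3 and Tdpoz4 were 79.21% identical. The closest copy was nearer in each case: Gm9125 and Gm9117 at 98.22% for Tdpoz1, Gm4982 at 99% for Tdpoz3 and Gm4858 at 90.75% for Tdpoz4.

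How much of each exon could yield a unique read was computed from the genome. Of the 100-base windows of the exon, 88.36% occurred once in mm9 for Tdpoz4, 62.85% for Tdpoz1 and 53.25% for Tdpoz3. Tdpoz3 had the most reads of the 3 and the smallest unique share, and its level per kilobase counts exon that cannot yield a unique read. Its 99% match, Gm4982, had the same unique share of 53.25%. The cells are of the 129S4/SvJae strain while mm9 is a C57BL/6J genome, and how far the copies differ between the strains was not tested. Gm9117 and Gm9125 were 100% identical over the exon, as were Tdpoz5 and Gm10697, and these 4 copies had no unique window, yet 85 reads were assigned to them, 59 of them to Gm9125. The LTRs differed as well: 100% of windows in the MT2B of Tdpoz3 were unique, 80.38% in that of Tdpoz4 and 15.41% in that of Tdpoz1.

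**Figure D3:**
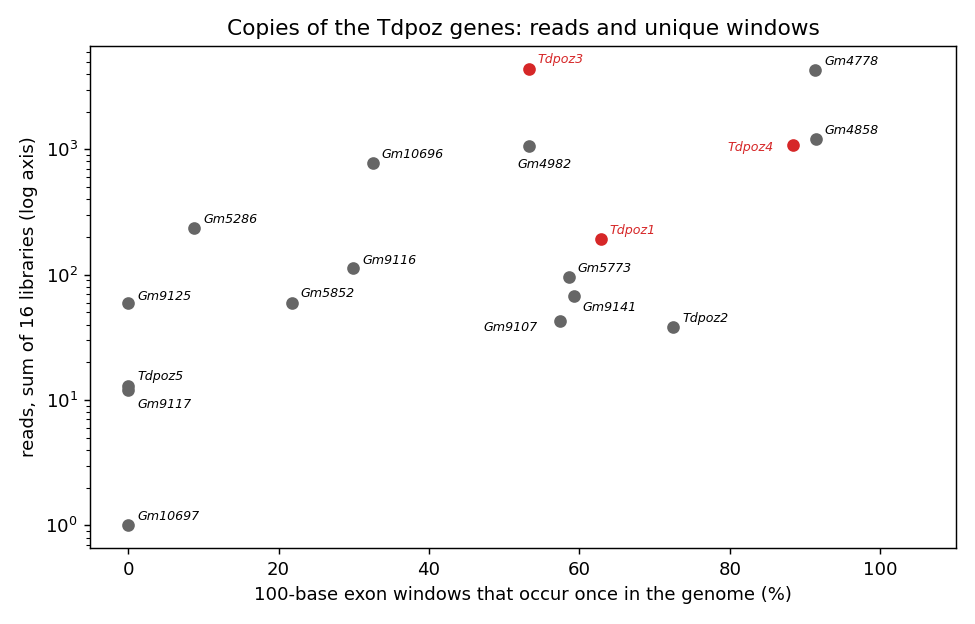
Reads summed over the 16 libraries (log axis) against the share of 100-base exon windows that occur once in mm9, for each of the 18 copies, with Tdpoz1, Tdpoz3 and Tdpoz4 in red. Tdpoz3, with 53.25% unique windows, and Gm4778, with 91.33%, stand above 4000 reads, and the 4 copies at 0% hold 1 to 59 reads each.

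Over all 18 copies, reads rose on knockdown in each genotype. The copies together held 5.05 to 5.98 CPM in WT shEmpty and 56.4 to 61.8 CPM in WT shKAP1, 1.02 to 3.38 and 21.3 to 28.9 CPM in DNMT TKO, and 4.36 to 5.01 and 183 to 187 CPM in TET TKO. A read given to the wrong one of these copies leaves the sums as they are, but reads that matched several places were discarded, and reads on the loci outside annotated genes are not in the sums. The shEmpty sums of DNMT TKO and TET TKO both lay below those of WT, in TET TKO by a narrow margin. Of the other 15 copies 12 were tested, 6 of which passed the filter of 16 reads only with their shKAP1 reads. Of the 6 that reached it in shEmpty, knockdown raised 5 in WT (10.8% of all genes), 5 in DNMT TKO (10.1%) and 6 in TET TKO (8.05%), with median log2 changes of 2.45, 3.37 and 5.56 against -0.01, 0.02 and -0.01 over all genes. Their median interaction for DNMT TKO minus WT was 0.22 (0.04 over all genes), where the estimates of the 3 members lay below 0. Gm4778 had 29, 52 and 40 reads in WT shEmpty and 341, 433 and 322 in WT shKAP1. In DNMT TKO it had 7, 22 and 15 against 156, 157 and 170 reads, and in TET TKO 31 and 22 against 1279 and 1183. Its shKAP1 and shEmpty libraries did not overlap in any genotype, and 91.33% of its windows were unique. Gm4982, the near twin of Tdpoz3, had 4, 4 and 7 reads in WT shEmpty against 86, 108 and 88 in WT shKAP1, and 2 and 5 against 366 and 286 in TET TKO. Its interaction for TET TKO minus WT, 2.41, had an adjusted p of 0.071 (edgeR). The interaction was called for 3 of the 12 copies (2.08% of all genes called higher), Gm4778 at 2.49, Gm10696 at 3.05 and Gm5286 at 3.16.

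Among the tested copies, Gm9107, Gm5852 and Gm5773 departed from the order of the 3 genes, with a higher mean in DNMT TKO shKAP1 than in WT shKAP1. Gm5852 stood at 0.236 and 0.117 CPM in these groups and Gm5773 at 0.416 and 0.243 CPM, on few reads each. Gm9107 had 1 read in the 6 WT libraries together and 0 to 2 per library in TET TKO. In DNMT TKO it had 1, 2 and 3 reads without knockdown against 15, 9 and 8 with it. Without its reads in DNMT TKO shKAP1 it would not have passed the filter, so that a higher level there was built into its test and no call is given. In shEmpty, 4 copies were lower in DNMT TKO than in WT (8.05% of all genes), Gm4858 at -2.16, Gm10696 at -2.11, Gm4778 at -1.46 and Gm5286 between Gm10696 and Gm4778. Gm10696 rose more on knockdown in DNMT TKO than in WT, by 1.94 (adjusted p = 0.03; 4.66% of all genes), a call lost without replicate 1 of WT and DNMT TKO and in most fits that left out 1 library, and reached similar levels, with 40, 45 and 59 reads in DNMT TKO shKAP1 and 52, 56 and 35 in WT shKAP1. Tdpoz2, annotated as a pseudogene, had 38 reads, 15 and 9 of them in the 2 TET TKO shKAP1 libraries. The sense MT2B was not shared by all copies: 11 of 18 had one within 10 kb upstream, Gm4858 at 4414 bp among them, while Gm4778 and Gm4982 had none.

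The repeats that flank the 3 genes were counted as single integrants. Within 10 kb of the genes lay 95 annotated TEs, 37 around Tdpoz1, 25 around Tdpoz3 and 33 around Tdpoz4, comprising 41 LTR, 36 LINE, 16 SINE and 2 DNA elements. Reads fell on 42 of them and 15 passed the filter of 16 reads, 1 beside Tdpoz1, 8 beside Tdpoz3 and 6 beside Tdpoz4. Of the 8155 reads, 7824 lay beside Tdpoz3. Of the 15 tested integrants, 13 ran in the direction of the gene. Of these 15, 10 had fewer than 16 reads over the shEmpty libraries and passed the filter only with their shKAP1 reads, so that a rise was largely built into their tests. The 5 that reached 16 reads in shEmpty all lay beside Tdpoz3, and knockdown raised 5 of 5 in WT (12.1% of all 123880 tested TE integrants), in DNMT TKO (15.0%) and in TET TKO (14.7%). Reads on a repeat inside a transcript of the gene and reads from the repeat's own promoter cannot be told apart in these counts.

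These 5 were the MT2B upstream of Tdpoz3 and, downstream, a B3, the nearest L1_Mur3, the RLTR45 and the IAPEY4. The MT2B, whose sequence before the aligned position is given above, had 1, 10 and 3 reads in WT shEmpty and 68, 108 and 64 in WT shKAP1. In DNMT TKO it had 2, 4 and 1 against 16, 35 and 29 reads, and in TET TKO 5 and 3 against 252 and 216. Its shKAP1 libraries were above every shEmpty library and followed the order of the gene, with log2 changes of 4.35, 3.56 and 6.24. The interaction of 1.89 for TET TKO minus WT did not pass (adjusted p = 0.15, edgeR). Downstream in the sense direction came a B3 SINE at 484 bp, 3 pieces of L1_Mur3 at 1222, 2511 and 3021 bp, an RLTR45 LTR with its ERVB4_2 internal part at 3189 bp, and an IAPEY4 internal part with its IAPLTR4 at 6276 bp.

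The IAPEY4 element, a provirus of 4986 bp of the intracisternal A particle class, held 4000 reads. It had 14, 20 and 37 reads in WT shEmpty against 438, 474 and 404 in WT shKAP1. In DNMT TKO it had 6, 8 and 2 against 69, 70 and 60 reads, and in TET TKO 7 and 8 against 1264 and 1119. Its log2 changes were 4.51 (SE 0.20) in WT, 3.73 (SE 0.25) in DNMT TKO and 7.70 (SE 0.29) in TET TKO. With KAP1 present it was called lower than in WT in both mutants, in which the Tdpoz3 gene was not called, at -2.11 in DNMT TKO and -1.77 in TET TKO (adjusted p = 5.2e-08 and 6.2e-05, edgeR), as were 6.45% and 2.33% of all TE integrants. For TET TKO minus WT, 4 of the 15 integrants were called (0.831% of all TE integrants), all beside Tdpoz3: the IAPEY4 at 3.19 (adjusted p = 2.7e-16), the B3 at 3.30 (adjusted p = 0.0013), the RLTR45 at 2.99 (adjusted p = 0.0099) and the L1_Mur3 at 1222 bp at 2.17 (adjusted p = 0.016). Without replicate 2 of TET TKO shEmpty 1 of the 15 was called, the IAPEY4 at 3.33, and limma-voom called 2. For DNMT TKO minus WT the adjusted p of the 8 integrants beside Tdpoz3 ran from 0.6 to 0.97.

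The RLTR45 element had 2, 3 and 10 reads in WT shEmpty and 111, 165 and 112 in WT shKAP1, with log2 changes of 4.95 in WT, 4.24 in DNMT TKO and 7.94 in TET TKO. The B3 had 4, 9 and 4 against 80, 94 and 94 reads in WT, with changes of 4.24, 3.61 and 7.55. The single antisense integrant of this group, an RMER17C 1721 bp upstream, held 40 reads, 1 of them in a shEmpty library.

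Beside Tdpoz1 and Tdpoz4 few uniquely aligned reads fell on the flanks, 116 and 215 in all. Of the flanking repeats, only the MT2B copies had their unique share computed, so few reads do not show that a repeat was silent. Beside Tdpoz1 only a B3 at 321 bp downstream was tested, with 2, 0 and 1 reads in WT shEmpty, 7, 13 and 9 in WT shKAP1, none in DNMT TKO or TET TKO shEmpty, 7, 0 and 1 in DNMT TKO shKAP1 and 26 and 23 in TET TKO shKAP1. Its MT2B held 1 read in all, with 15.41% of its windows unique. The MT2B of Tdpoz4 held 38 reads, 0 in the WT shEmpty libraries, 2, 6 and 5 in WT shKAP1 and 9 and 9 in TET TKO shKAP1,. Over the shEmpty libraries together it held 2. The other 5 tested integrants beside Tdpoz4, an Lx5, an Lx3A, an RMER17A, an ORR1B1 and an antisense L1Md_T, held 16 to 44 reads each, of which 1 to 7 were in shEmpty libraries, and no call is given for them. The ORR1B1 had reads in WT and TET TKO but 0 in each of the 6 DNMT TKO libraries.

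**Figure D4:**
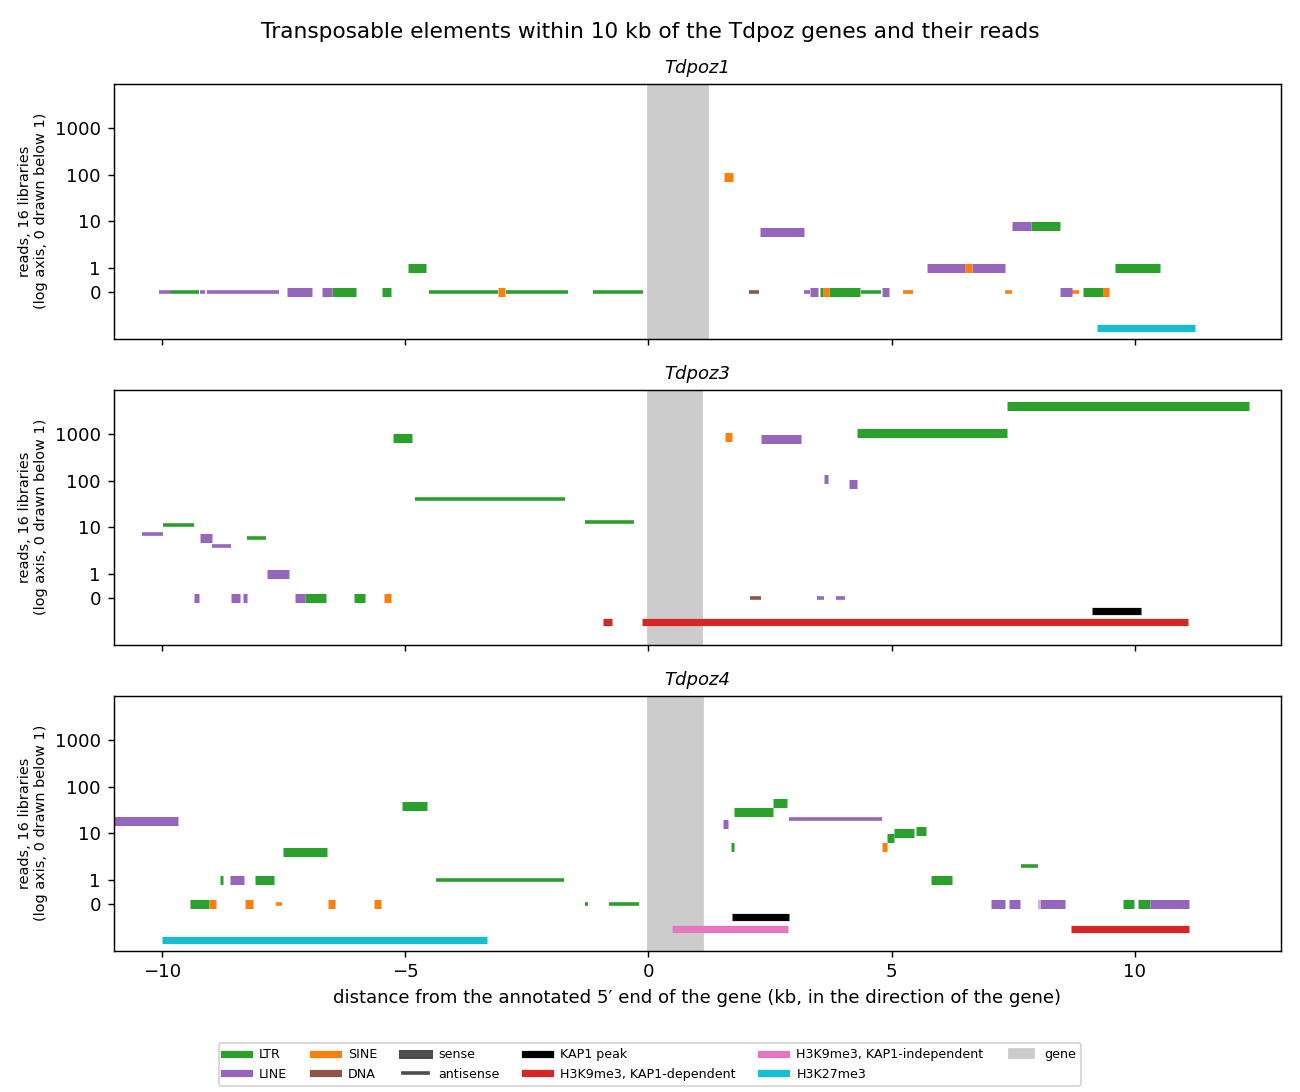
Annotated TEs within 10 kb of each Tdpoz gene, placed by distance in kb from the annotated 5′ end in the direction of the gene, with reads summed over the 16 libraries on a log axis on which 0 is drawn at the lowest tick; thick lines are sense and thin lines antisense elements, the grey band is the gene and the lowest bars are the KAP1, H3K9me3 and H3K27me3 regions, drawn only as far as 10 kb from the gene. Beside Tdpoz3 the upstream MT2B holds 817 reads and the downstream IAPEY4 element 4000, while 1 element beside Tdpoz1 holds at least 16.

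Over the genome, few MT2B LTRs rose. Of 674 MT2B integrants tested, 6.53% rose in WT, 6.08% in DNMT TKO and 8.31% in TET TKO, against 12.1%, 15.0% and 14.7% of all TE integrants, and their median log2 changes were 0.00, 0.08 and 0.03. Of the 20321 tested genes, 1297 (6.38%) had a sense MT2B within 10 kb upstream. Without the copies, 1289 remained, of which 6.36%, 5.82% and 5.35% rose in WT, DNMT TKO and TET TKO, against 10.8%, 10.1% and 8.05% of all genes.

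In the chromatin data of WT cells, the regions called around the 3 genes differed. Unique shares were computed only for the exons and the MT2B copies, so a region that was not called does not show that a mark was absent. No H3K4me3 peak, the mark of active promoters, was called within 10 kb of any of them, whereas 73.9% of tested genes overlapped one in both replicates. The Tdpoz3 gene lay wholly (100%) within a region of 13599 bp, chr3:93629801-93643399, whose H3K9me3 depends on KAP1, as 7.96% of genes overlapped such a region. The same region held the downstream IAPEY4 element. A KAP1 peak centred 9.6 kb from the 5′ end of Tdpoz3 lay wholly inside that element. H3K27me3, the Polycomb mark, covered the Tdpoz3 gene in replicate 2 alone. Of the Tdpoz4 gene 56.8% lay in a region with KAP1-independent H3K9me3 (chr3:93600801-93603199), which 0.62% of genes overlapped. A KAP1 peak centred 2.3 kb from the 5′ end of the gene spanned the tested RMER17A and ORR1B1 downstream. The upstream MT2B of Tdpoz4 lay wholly within H3K27me3 in both replicates. A KAP1-dependent region lay at the far end of its downstream flank. Tdpoz1 had none of these within 10 kb other than an H3K27me3 region centred 11.3 kb from its 5′ end that reached into the flank.

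Levels of 5hmC over these regions were measured with 1 library per hairpin, so no difference was tested. Each ratio of 5hmC to input reads was scaled by the reads of both libraries in the H3K4me3 and H3K27me3 regions, which are part of a library and not its depth. The KAP1-dependent region of Tdpoz3 held 415 5hmC and 525 input reads in shEmpty and 727 and 716 in shKAP1. The scaled ratio was 0.75 (95% interval 0.658 to 0.854, counting error only) in shEmpty and 1.09 (0.982 to 1.21) in shKAP1, both below the 1.54 and 2.17 of that whole set of regions. At the KAP1 peak near Tdpoz3 it was 0.383 and 0.439, and at the peak near Tdpoz4 1.82 and 1.60, where all KAP1 peaks had 1.85 and 2.73. Over the KAP1-independent region of Tdpoz4 the ratio was 1.21 in shEmpty and 1.15 in shKAP1, against 2.58 and 1.28 for its set.

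The genes whose levels were most like those of the Tdpoz genes included 4 genes of the Zscan4 cluster on chromosome 7. Among 15278 genes with at least 200 reads, ranked by the Pearson correlation of log2 CPM with the mean of the 3 genes over the 16 libraries, the first 10 were Zscan4f (r = 0.994), Zscan4d (0.992), Zscan4e, Dub2a, Gm12794, Gm13109, Zscan4c, Gm12800, AU019990 and ENSMUSG00000093420 (0.984). None was a copy of the Tdpoz genes and none had a sense MT2B within 10 kb upstream. ZSCAN4 proteins are zinc finger factors known for telomere maintenance in 2-cell-like cells.

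From a list of 30 markers of the 2-cell-like state, chosen with earlier results of these data known, 23 were found and tested. Knockdown raised 23 of them in WT (10.8% of all genes), 19 in DNMT TKO (10.1%) and 23 in TET TKO (8.05%), with median log2 changes of 3.15, 2.74 and 5.65 against -0.01, 0.02 and -0.01 over all genes. The interaction was called higher in TET TKO than in WT for 12 (2.08% of all genes) and lower in DNMT TKO for 3 (2.48%). Zscan4d went from 8.41 ± 2.69 to 91.3 ± 2.86 CPM in WT, from 6.12 ± 2.82 to 31.4 ± 11.1 CPM in DNMT TKO (SD, n = 3) and from 3.68 ± 0.478 to 269 ± 3.17 CPM in TET TKO (SD, n = 2), the order seen for the Tdpoz genes. Tmem92-ps departed from that order, with 54.8 ± 18.3 CPM in WT shKAP1, 124 ± 34.1 CPM in DNMT TKO shKAP1 and 126 ± 6.36 CPM in TET TKO shKAP1. Means were also higher in DNMT TKO shKAP1 than in WT shKAP1 for Gm8994, B020004J07Rik, Gm2016 and Gm2056, and narrowly for Gm8300 and Dux. Of the 23 markers, 11 were called lower in DNMT TKO shKAP1 than in WT shKAP1 (8.37% of all genes) and 3 higher (11.3%). In TET TKO shKAP1, 18 were called higher than in WT shKAP1 (6.10%). Gm5662, Zscan4c and BC080695, the others among the 5 with the most reads, rose by log2 2.39, 3.28 and 3.90 in WT, by 2.29, 2.91 and 4.57 in DNMT TKO and by 4.57, 5.92 and 6.86 in TET TKO.

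Of the partners of MATH-BTB proteins in general (Spop and Spopl, their relatives, and Cul3, Rbx1, Nedd8 and Cand1 of the cullin ligase), 6 of 6 were tested. By edgeR 0 were called in any of the 9 comparisons, with 1 to 3 of the 6 at an unadjusted p under 0.05 in each. Of all genes, 4.21% to 19.7% were called in either direction in the interactions, the shEmpty comparisons and DNMT TKO against WT in shKAP1. In the knockdowns 8.05% to 10.8% were called higher, and in TET TKO against WT in shKAP1 6.10%. Some passed the adjusted p at less than 2-fold, among them Spopl in WT at a log2 change of 0.93 (adjusted p = 2.4e-07, edgeR) and Spop in DNMT TKO at -0.56 (adjusted p = 3.2e-06), and Spopl gave an interaction of -0.72 for DNMT TKO minus WT (adjusted p = 0.00078). Cul3 stood at 245 CPM in WT shEmpty and 251 CPM in WT shKAP1. Spopl came nearest to 2-fold, at 15.9 and 30.3 CPM in the same groups. Of the 22 genes within 250 kb of the genes whose symbol begins with Tdpoz, 14 were copies and 8 were not, and 4 of the 8 were tested. Of these, knockdown raised Tchh in WT (10.8% of all genes), in DNMT TKO (10.1%) and in TET TKO (8.05%). Gm16560 had 22 reads in all and 0 CPM in each shEmpty group. It passed the filter of 16 reads through its shKAP1 libraries alone, so that a rise was built into its test and no call is given. Tchh, a hair follicle protein, rose by log2 3.39 in WT, 3.09 in DNMT TKO and 1.20 in TET TKO. Its smallest rise was in TET TKO, where the Tdpoz genes had their largest. Its interaction for TET TKO minus WT was -2.19 (adjusted p = 0.0035, edgeR), where 2.13% of all genes were called lower. Without knockdown Tchh was already higher in TET TKO than in WT, at 4.56 against 1.38 CPM (log2 1.64, adjusted p = 0.0011, edgeR). After knockdown the log2 difference was -0.55 (adjusted p = 0.15, edgeR).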

How the data were processed

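RNA-seq of the 16 libraries (stranded, single-end reads of 100 bases, 5 days after transduction) was deposited as counts: reads per gene (featureCounts) and per repeat (bedtools multicov, on a track in which fragments of an element were merged), made by the authors from uniquely aligned reads on mm9. The submitters' processing notes name HISAT2 2.0.1, featureCounts 1.5.1, bedtools 2.25, Bowtie2 2.2.1, MACS 1.4 and SICER 1.1. The headers of the deposited gene counts give featureCounts 1.5.0-p1 and alignment names of the kind TopHat writes, so that the aligner behind the assignment of reads among copies is not settled. Of the hMeDIP libraries, deposited as counts of reads over region sets, replicate 1 was used; in replicate 2, labels and file names give the libraries different roles, and it was left out. H3K4me3 and H3K27me3 regions came with a peak score given by the authors per replicate against its input (MACS for H3K4me3, the program for H3K27me3 not given in the sources used here), and only their positions were used. KAP1 and H3K9me3 regions are those in which the authors counted hMeDIP reads.

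Genes and TE integrants with at least 16 reads over the 16 libraries were tested in 1 fit of 6 groups with edgeR 4.0.16 (TMM, robust quasi-likelihood, Benjamini-Hochberg over all features), and called at adjusted p below 0.05 and at least 2-fold. For TEs, the genes' library sizes and TMM factors were used. Folds are fitted, and a CPM is a read count per 1000000 reads after TMM. Each SE is approximate: the absolute log2 fold change divided by the square root of the F statistic of its edgeR test. Alternatives were limma-voom (limma 3.58.1, the study's test), the DESeq2 1.42.0 Wald test, other scalings, filters and thresholds, the replicate block, other sets of libraries and flank widths. On simulated data with 200 changed genes, 38% of 2-fold, 98% of 4-fold and 100% of 8-fold changes were called in the WT knockdown (3 false calls among 20114 genes). In TET TKO these shares were 36%, 92% and 100% (3 among 20107). Changes near 2-fold were mostly missed, in part because the rule itself asks for a fitted fold of 2 or more. The changed genes had at least 200 reads and 1 common mean before the change. The shares therefore do not carry over to Tdpoz1, with 191 reads, or to other features near 0 in shEmpty. Same-numbered libraries deviated together in both WT hairpins (r = 0.118 to 0.274) and in shEmpty of WT and DNMT TKO (0.135 to 0.317), which the values alone show. In the other pairs of groups at least 1 correlation was below 0.1, so that there the numbers were not taken to pair libraries.

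Copies were found with BLAST 2.17.0 in mm9, and unique windows by counting exact matches on both strands. Promoters came from RefSeq (GRCm38.p6) and were matched to mm9 by sequence. Intervals of ratios are exact binomial at 95% and cover counting error only. R 4.3.3 and, in Python 3.11.15, pandas 2.3.3, scipy 1.17.1, numpy 2.4.6, Biopython 1.88 and matplotlib 3.10.9 were used.

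Named were the Tdpoz genes in every comparison, and their copies and the genes within 250 kb as counts with values for the tested ones most read. Also named were the 10 genes most like their mean, every flanking integrant with at least 16 reads, and Trim28. Of the 2-cell list, the 5 most read were named, and those with a higher mean in DNMT TKO shKAP1 than in WT shKAP1. The MATH-BTB list and the lists of ESC, fibroblast, trophoblast and primitive endoderm markers were reported as counts or sums. Members and lists were chosen with earlier results of these data known.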

Additional observations from a re-analysis of the deposited data

Results flagged for a closer look

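The difference of the knockdown effect between genotypes was tested as an interaction, and each of the following values passed it in edgeR's quasi-likelihood test with Benjamini-Hochberg adjustment. For DNMT TKO minus WT, Trim28 fell less, by 1.28 on the log2 scale (adjusted p = 0.0008), and Gm10696 rose more, by 1.94 (adjusted p = 0.03), a call lost without replicate 1 of WT and DNMT TKO and in most fits that left out 1 library. For TET TKO minus WT, Tdpoz3 rose more by 2.36 (adjusted p = 0.0015), and beside it the B3 by 3.30, the L1_Mur3 at 1222 bp by 2.17, the RLTR45 by 2.99 and the IAPEY4_I-int element by 3.19. Among the copies, Gm4778 rose more by 2.49, Gm10696 by 3.05 and Gm5286 by 3.16. Of the 2-cell genes, Zscan4d rose more by 2.78 (adjusted p = 0.0063), Zscan4c by 2.64 (adjusted p = 0.038) and BC080695 by 2.97 (adjusted p = 0.0029). Tchh, a neighbour that is no copy, gave -2.19 (adjusted p = 0.0035), with a level already higher in TET TKO than in WT without knockdown. The TET TKO values share 2 shEmpty libraries that differed from each other more than any other pair of replicates. The test of a single outlying value was not made, since it needs 4 or more libraries in a group and the groups held 2 or 3.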

How the results depend on the processing

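Of 235 alternative values of the counts and shares reported, 213 kept their value within 1.5 times, and of 1873 values of single genes and integrants 1775 kept direction and side of the threshold, 71 lost a call, 24 gained one and 3 turned sign. The knockdown calls of the 3 genes held in WT and TET TKO in every fit (3 to 3 leaving out 1 library), and in DNMT TKO ran from 2 to 3. These counts include Tdpoz1, whose rise was built into its test by the filter. For TET TKO minus WT, 2 genes instead of 1 were called without a filter on low counts, with DESeq2, with the replicate block, with only the groups compared, and without replicate 1 of WT and DNMT TKO (chosen after seeing the data), in each case by adding Tdpoz4: adjusted p was 0.048, 0.023, 0.038, 0.012 and 0.0017, and leaving out 1 library gave 1 to 1. In the block the value of Tdpoz4 was 1.53, and the block changed no other count of the 3 genes. For DNMT TKO minus WT, 1 instead of 0 was called without replicate 1 of WT and DNMT TKO, with 0 to 1 leaving out 1 library: Tdpoz3 was then called at -1.25 without DNMT TKO shEmpty replicate 1 and at -1.12 without DNMT TKO shKAP1 replicate 2. Other ranges were 2 to 3 (DNMT TKO against WT, shKAP1) and 2 to 2 (TET TKO against WT, shKAP1, where limma-voom, only the groups compared and leaving out replicate 1 of WT and DNMT TKO each called 3).

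Values that turned sign, all uncalled, were those of Tdpoz1 for DNMT TKO minus WT (0.70 without DNMT TKO shEmpty replicate 3, range -2.58 to 0.70 leaving out 1 library), Tdpoz1 for TET TKO minus WT (-0.28 without TET TKO shEmpty replicate 1, range -0.28 to 3.62) and Tdpoz4 for DNMT TKO minus WT (0.09 without DNMT TKO shEmpty replicate 2, range -0.93 to 0.09). Of the 15 flanking integrants, 10 were called in WT, 9 in DNMT TKO and 14 in TET TKO, counts that include those with a rise built in by the filter; 18 were called in WT and 23 in TET TKO within 20 kb, 8 in TET TKO with a filter of 50 reads, and 2 for TET TKO minus WT with limma-voom. Leaving out 1 library gave 10 to 11 (WT), 7 to 10 (DNMT TKO), 10 to 14 (TET TKO) and 1 to 4 (TET TKO minus WT), where the IAPEY4 element kept its call. With windows of 75 and 50 bases, the unique share was 53.8% and 42.1% for Tdpoz1, 45.5% and 33.8% for Tdpoz3 and 80.1% and 58.8% for Tdpoz4. By Spearman's rho, 6 of the 10 most like genes were shared. The causes were not tested. Depth limits Tdpoz1 most, with 2 reads in each shEmpty group.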
